A study of Homo sapiens with 9 samples.

Results

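The lysosome, cathepsin and autophagy genes examined here were 45 genes fixed by name: 10 cysteine cathepsins, the serine cathepsin CTSA and the aspartic cathepsin CTSD, 10 lysosomal hydrolases and lumenal cofactors, 6 lysosomal membrane proteins, 4 subunits of the vacuolar proton pump, the transcription factors TFEB and TFE3, the autophagy receptor SQSTM1 with 3 ATG8 family proteins, and 7 genes of autophagy initiation and conjugation. All 45 were among the 26475 gene symbols of the count table, and all 45 were among the 16417 genes that passed the filter on low counts. The cells were A375, a human melanoma cell line that carries mutant BRAF. TP-472 binds the bromodomains of BRD9 and BRD7, subunits of SWI/SNF chromatin remodeling complexes, and blocks them. Every group was the A375 line in culture for 24 h, and the 3 groups of 3 biological replicates received the solvent DMSO or TP-472 at 5 or 10 µM. A single cell line stands for melanoma here.

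Lysosomes are acidic organelles that break down proteins, lipids and sugars with hydrolases, and the cathepsins are their main proteases. The vacuolar ATPase pumps protons into the lumen and so keeps these enzymes active, while autophagy carries cytoplasmic cargo to the lysosome in vesicles coated with lipid-linked ATG8 proteins such as LC3B. TFEB and TFE3 are held in the cytoplasm by mTORC1 when nutrients are plentiful. With MITF of the melanocyte lineage, they belong to the MiT family of transcription factors, which bind E-box sequences near lysosomal and autophagy genes.

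Because of this link, the promoters of the 45 genes were searched for the E-box CACGTG, which reads the same on both strands. The RefSeq promoter table (GRCh38.p14, 250 bases before to 50 bases after the start) held 35 of the 45 genes, and 9 of these 35 (25.7%) carried the E-box, against 7.26% of all 35116 promoters in the table and 9.84% of the 11784 promoters of tested genes. The longer form TCACGTG, searched on both strands and always overlapping the E-box, was in 8 of the 35 (22.9%) against 3.71% of all promoters and 5.59% of the promoters of tested genes. A match is a string of letters and not evidence of binding. The stretches below are shown because they put the E-box, in capitals, beside the results: the first 3 belong to genes that rose at 10 µM TP-472, CTSF fell, and LAMP1 and GAA were not called. The other 3 genes with an E-box, CTSA, CTSD and CD63, were not called either. These calls are those of the edgeR fit described below, and alternative fits changed some of them. With a trend of exonic length and GC content removed, CTSA and GAA were called higher at 10 µM. Without 10 µM replicate 1, CTSA was called higher and CTSD and CD63 lower. Of the 35 genes, the E-box was in 3 of 10 called higher at 10 µM (30%) and 1 of 5 called lower (20%). The stretches lie upstream of the RefSeq start and outside GENCODE 29 exons, except that of ATP6V0D1, which is cut to the 30 bases around its E-box, and they run 5′ to 3′ on the strand of the gene. NEU1 is at chr6:31862907-31862971 (minus), ATP6V0D1 at chr16:67481199-67481228 (minus), MCOLN1 at chr19:7522524-7522623 (plus), CTSF at chr11:66568607-66568717 (minus), LAMP1 at chr13:113297029-113297238 (plus) and GAA at chr17:80101481-80101555 (plus).
NEU1: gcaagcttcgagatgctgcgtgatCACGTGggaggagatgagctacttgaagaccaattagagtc
ATP6V0D1: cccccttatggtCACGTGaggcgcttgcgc
MCOLN1: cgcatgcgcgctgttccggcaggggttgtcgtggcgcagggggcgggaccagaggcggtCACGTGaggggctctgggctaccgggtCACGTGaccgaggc
CTSF: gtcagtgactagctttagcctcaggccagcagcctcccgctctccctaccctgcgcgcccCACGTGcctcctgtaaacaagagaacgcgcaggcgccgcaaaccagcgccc
LAMP1: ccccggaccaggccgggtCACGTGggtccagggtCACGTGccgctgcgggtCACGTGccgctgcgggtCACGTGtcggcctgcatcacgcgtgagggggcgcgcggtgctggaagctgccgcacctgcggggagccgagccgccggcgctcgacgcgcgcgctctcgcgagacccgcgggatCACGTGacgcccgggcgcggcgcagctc
GAA: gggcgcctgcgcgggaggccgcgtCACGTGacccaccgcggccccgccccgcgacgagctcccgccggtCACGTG

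The expected counts summed to between 42483091 and 51298130 per library, and genes of ribosomal RNA took 8.20% to 19.9% of them. Levels below are in CPM, counts scaled to a common library size with TMM factors, and a gene was called at a Benjamini-Hochberg adjusted p under 0.05 from edgeR's quasi-likelihood test over all 16417 genes, with the count at a fold of at least 1.5 given beside it. The deviation of 10 µM replicate 1 from the mean of its own group followed exonic length and GC content for 8.29% of its variance. The share was 3.36% and 4.40% for the other 10 µM libraries and at most 0.424% elsewhere. Results that rest on 10 µM replicate 1 are therefore given with and without it. Of the melanocyte lineage markers, SOX10 was at 363 to 426 CPM and MITF at 23.3 to 35.9 CPM, whereas the 4 pigment genes were low, with TYR at 0 in every library, DCT at 0 in all but 10 µM replicate 2, MLANA at no more than 0.346 CPM and PMEL, the highest of them, at 0.968 to 2.87 CPM. The summed level of 5 leukocyte and macrophage markers was 0.679 to 1.54 CPM without TP-472, 0.789 to 1.59 CPM with 5 µM and 1.63 to 5.83 CPM with 10 µM, highest in replicate 1. That of 3 keratinocyte markers was 6.15 to 10.5 CPM, and that of 3 fibroblast markers was 25.4 to 26.2 CPM in DMSO and 9.01 to 13.3 CPM at 10 µM, most of it PDGFRB. DCN and LUM, the other fibroblast markers, were not called at either dose against DMSO. In bulk RNA of this single line, fewer cells expressing a gene and less RNA per cell cannot be told apart.

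Treatment with 10 µM TP-472 did not move these genes as 1 group. SQSTM1 with 2 of the 3 ATG8 genes and 3 of the 4 proton pump subunits rose, 5 of the 6 called cysteine cathepsins fell, and 12 of the 16 hydrolases, cofactors and membrane proteins were not called. In all, 12 genes were higher and 7 lower than in DMSO, so that 42.2% of the 45 were called against 34.3% of all genes tested. By direction, 26.7% were higher against 16.4% of all genes, and 15.6% were lower against 18% of all genes. At a fold of at least 1.5, 6 genes were higher and 5 lower, where 8.57% and 10.5% of all genes were (19.1% in either direction). The median log2 fold change of the 45 genes was 0.031 against 0.011 over all genes tested. Treatment with 5 µM TP-472 called 4 genes higher and 5 lower, or 20% of the 45 against 10.2% of all genes tested (4.4% higher and 5.81% lower). At a fold of at least 1.5 only CTSS was left at 5 µM, lower, where 2.72% of all genes were lower and 2.14% higher (4.87% in either direction). All 9 genes called at 5 µM were also among the 19 called at 10 µM, where the comparison uses the same DMSO libraries, and 26 genes were called at neither dose. CTSB and CTSS are among the genes the study itself picked from these libraries, so their calls are not independent evidence.

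**Figure D1:**
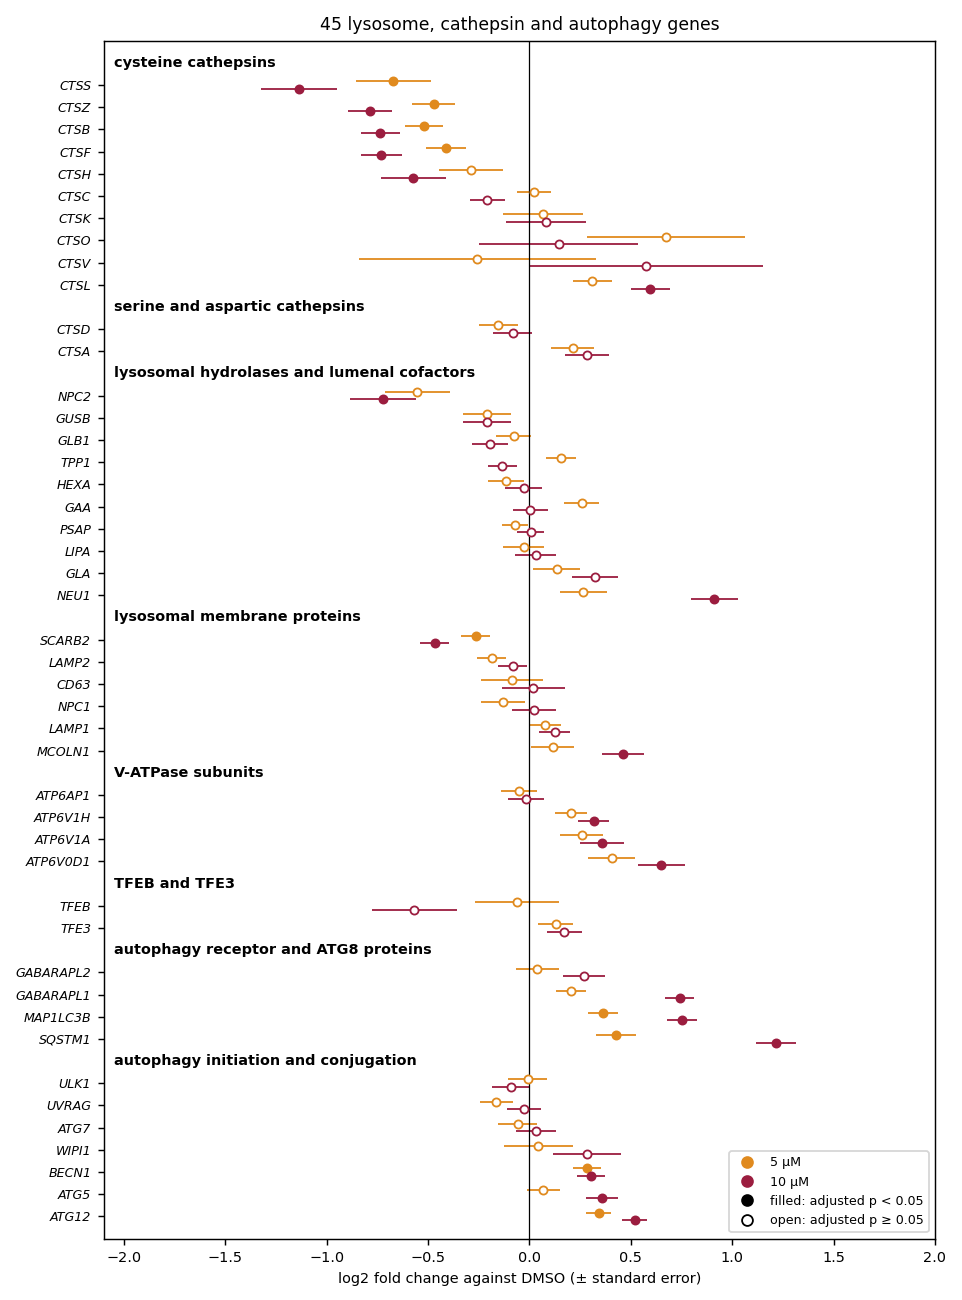
Log2 fold change against DMSO (horizontal axis, ± standard error) of the 45 genes, grouped by role, at 5 µM (orange) and 10 µM TP-472 (dark red). Filled points passed an adjusted p under 0.05. At 10 µM, 12 genes lay to the right of 0 and 7 to the left among the filled points, from SQSTM1 at 1.22 to CTSS at -1.14.

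Among the cysteine cathepsins, papain-like proteases of the lysosome, CTSB, CTSF, CTSH, CTSS and CTSZ were lower at 10 µM and CTSL alone was higher, while CTSC, CTSK, CTSO and CTSV were not called. The 10 genes had a median log2 fold change of -0.39 at 10 µM and -0.27 at 5 µM. Their summed level averaged 1035 ± 22.5 (DMSO), 874 ± 26.0 (5 µM) and 781 ± 99.4 (10 µM) CPM, as mean ± SD of 3 libraries.

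CTSB encodes cathepsin B, an abundant lysosomal protease that tumor cells can also secrete, on chromosome 8 from 11842524 to 11869448 of GRCh38 (GENCODE 29). Its level was 326, 312 and 329 CPM in the DMSO libraries, 231, 218 and 225 CPM with 5 µM and 223, 188 and 170 CPM with 10 µM. All 6 TP-472 libraries were below all 3 DMSO libraries, and the doses overlapped each other. The log2 fold change was -0.52 at 5 µM (adjusted p = 0.00736 from edgeR, standard error 0.09) and -0.74 at 10 µM (adjusted p = 0.000291 from edgeR, standard error 0.09), and the step from 5 to 10 µM of -0.21 did not pass (adjusted p = 0.193 from edgeR). Without 10 µM replicate 1 the value at 10 µM was -0.85, and the step between the doses was -0.33 and passed (adjusted p = 8.6e-05 from edgeR).

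CTSZ, encoding the carboxypeptidase cathepsin Z (chromosome 20, 58995185 to 59007247), was at 264, 255 and 258 CPM in the DMSO libraries, 193, 187 and 180 CPM with 5 µM and 179, 131 and 141 CPM with 10 µM. CTSF, encoding cathepsin F (chromosome 11, 66563463 to 66568841), was at 51.1, 47.2 and 51.2 CPM in the DMSO libraries, 36.8, 38.3 and 37.3 CPM with 5 µM and 34.6, 28.6 and 26.9 CPM with 10 µM. For both genes the 3 groups did not overlap, with 10 µM lowest. The log2 fold changes at 5 and 10 µM were -0.47 and -0.79 for CTSZ and -0.41 and -0.73 for CTSF, all 4 of them called. For both genes the call at 5 µM was lost on leaving out any DMSO or 5 µM library. The values at 10 µM without replicate 1 were -0.93 and -0.85.

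CTSS encodes cathepsin S, a protease best known from antigen-presenting cells (chromosome 1, 150730196 to 150765957). Its level was 14.9, 13.8 and 14.7 CPM in the DMSO libraries, 11.5, 8.77 and 7.04 CPM with 5 µM and 5.25, 7.56 and 6.93 CPM with 10 µM. Both doses lay below DMSO, and they overlapped each other. Its log2 fold change of -0.67 at 5 µM was close to the limit (adjusted p = 0.0487 from edgeR), and that at 10 µM was -1.14 (adjusted p = 0.00136), a 2.20-fold fall. The leukocyte and macrophage markers given above summed to at most 5.83 CPM in any library, and a link to CTSS was not tested. CTSH, a cathepsin with aminopeptidase activity, had a log2 fold change of -0.57 at 10 µM at a mean of 10.9 CPM in DMSO, and the call was lost without DMSO replicate 1, DMSO replicate 2 or 10 µM replicate 3.

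CTSL, encoding the endopeptidase cathepsin L (chromosome 9, 87725519 to 87731393), was the exception among the called cathepsins. Its level was 99.9, 98.8 and 95.0 CPM in the DMSO libraries, 126, 116 and 123 CPM with 5 µM and 170, 133 and 140 CPM with 10 µM. The 3 groups did not overlap, with 10 µM highest. The log2 fold change was 0.31 at 5 µM, which did not pass (adjusted p = 0.0677 from edgeR), and 0.60 at 10 µM, which did (0.48 without replicate 1).

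Of the uncalled cathepsins, CTSC, which activates serine proteases of granules, was at 274 CPM in DMSO. Its log2 fold change at 10 µM was -0.21, and without replicate 1 it was called lower at -0.31. With the trend of each library with exonic length and GC content removed, the value was -0.0075 and was not called. CTSK, CTSO and CTSV were near the floor of expression, at 3.77, 1.44 and 1.18 CPM in DMSO, with standard errors at 10 µM of 0.20, 0.39 and 0.58. A change of the size seen in CTSB was not detectable with standard errors as large as those of CTSO and CTSV. CTSA, a carboxypeptidase that also shields NEU1 and GLB1 in a complex, had a log2 fold change of 0.28 at 10 µM (adjusted p = 0.0657 from edgeR). CTSD, the aspartic protease, had -0.08. Without 10 µM replicate 1 the values of CTSA and CTSD were 0.13 and -0.21, and both were called. With the length and GC trend removed they were 0.45 and -0.02, and only CTSA was called. By GENCODE 29, 28.5% of the exonic length of CTSA overlaps genes on the other strand and 41.7% of that of CTSD overlaps a gene on its own strand, so reads may have been shared there.

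**Figure D2:**
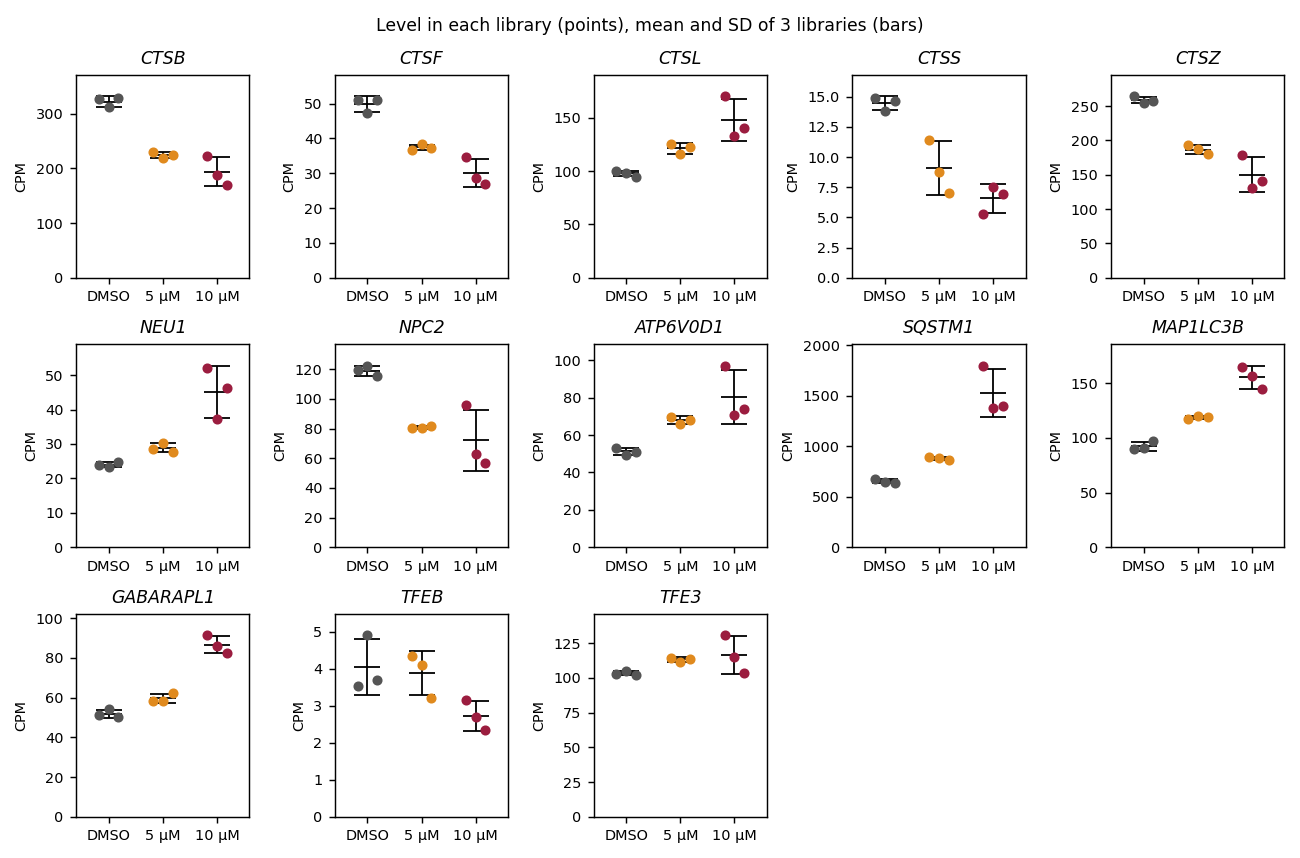
Level in CPM (vertical axis, from 0) of the 11 genes called with a fold of at least 1.5 and of TFEB and TFE3, in the 3 DMSO (grey), 5 µM (orange) and 10 µM (dark red) libraries. Points are libraries in the order of replicates 1 to 3 and bars the mean ± SD. The 11 genes were chosen by these calls, 5 lower and 6 higher at 10 µM, so their separation from DMSO is no further result. The 10 µM libraries of TFE3 overlapped those of DMSO.

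The lysosomal hydrolases and lumenal cofactors had 1 gene higher and 1 lower at 10 µM and 0 called at 5 µM, with a median log2 fold change of -0.013 at 10 µM. NEU1 encodes the lysosomal sialidase, which removes sialic acid from glycoproteins and glycolipids (chromosome 6, 31857659 to 31862906), and the E-box of its promoter is shown above. Its level was 24.0, 23.3 and 24.7 CPM in the DMSO libraries, 28.6, 30.3 and 27.7 CPM with 5 µM and 52.1, 37.1 and 46.3 CPM with 10 µM. The 3 groups did not overlap. NEU1 had a log2 fold change of 0.27 at 5 µM (adjusted p = 0.195 from edgeR) and of 0.91 at 10 µM (adjusted p = 0.000285 from edgeR, standard error 0.12), and 10 µM exceeded 5 µM by 0.65 (adjusted p = 0.00912 from edgeR, standard error 0.12). Without replicate 1 the value at 10 µM was 0.79.

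NPC2, a lumenal protein that hands cholesterol to NPC1 in the lysosomal membrane (chromosome 14, 74476192 to 74494177), fell. Its level was 119, 122 and 115 CPM in the DMSO libraries, 80.3, 80.6 and 82.0 CPM with 5 µM and 95.8, 63.1 and 57.1 CPM with 10 µM. Both doses lay below DMSO, and 10 µM replicate 1 stood above all 3 libraries of 5 µM. The log2 fold change was -0.55 at 5 µM (adjusted p = 0.0572 from edgeR) and -0.72 at 10 µM, or -0.99 without replicate 1. NPC1, the membrane partner of NPC2, averaged 64.8 ± 2.87 CPM without TP-472 and 65.8 ± 10.2 CPM with 10 µM (SD, n = 3 each), and its log2 fold change was 0.02, or 0.14 and called higher without replicate 1.

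The other 8 genes of this group, the glycosidases GAA, GLA, GLB1, GUSB and HEXA, the peptidase TPP1, the acid lipase LIPA and PSAP, the precursor of the saposins, had log2 fold changes between -0.21 (GUSB) and 0.32 (GLA) at 10 µM, and none was called. Without 10 µM replicate 1 they lay between -0.36 (GUSB) and 0.21 (GLA), and GUSB, GLB1 and HEXA were called lower, the latter pair at -0.24 and -0.14. With the length and GC trend removed, GAA was called higher at 0.21, and GUSB and GLB1 lower at -0.24 and -0.22. HEXA was not called there, at 0.14. GLA was called higher under several alternatives, among them DESeq2, but not with that trend removed (0.10). PSAP had the highest level per exonic length of the 45 genes in DMSO, 195 CPM per kb, and 196 CPM per kb at 10 µM. TPP1, the tripeptidyl peptidase deficient in a childhood neuronal storage disease, averaged 76.5 ± 3.79 (DMSO), 85.1 ± 2.29 (5 µM) and 69.7 ± 3.44 (10 µM) CPM, as mean ± SD of 3 libraries. Its step from 5 to 10 µM of -0.29 passed (adjusted p = 0.0389 from edgeR), but the call was lost under 10 of the 20 alternatives tried.

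Among the lysosomal membrane proteins, MCOLN1 was higher and SCARB2 lower at 10 µM, both by less than 1.5-fold. MCOLN1, the mucolipin calcium channel whose promoter carries both E-boxes shown above, went from 16.3 ± 0.307 to 17.7 ± 1.22 and 22.5 ± 2.75 CPM with rising dose (mean ± SD, n = 3 each), with a log2 fold change of 0.46 at 10 µM. SCARB2, an integral membrane protein of the lysosome, went from 151 ± 1.41 to 126 ± 4.88 and 109 ± 6.96 CPM (SD, n = 3 each), with log2 fold changes of -0.26 and -0.47, both called. The call at 5 µM was lost under 10 of the 20 alternatives. With the trend of each library with exonic length and GC content removed, the value of SCARB2 at 10 µM was -0.22 and was not called. The structural proteins LAMP1 and LAMP2 and the tetraspanin CD63 had log2 fold changes of 0.12, -0.08 and 0.02 at 10 µM, none called (0.07 and -0.13 without replicate 1 for the first pair, not called either), and the promoter of LAMP1 carries more E-boxes than any other of the 35 searched. CD63 depended on 1 library, with 547 CPM in 10 µM replicate 1 against 346 and 352 CPM in the other 10 µM libraries. In DMSO it was at 395 to 431 CPM. Without 10 µM replicate 1, CD63 was called lower at -0.23. With the length and GC trend removed it was not called, at -0.14.

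Of the 4 vacuolar ATPase subunits, 3 were higher at 10 µM and 0 were called at 5 µM. ATP6V0D1, a subunit of the membrane-bound sector (chromosome 16, 67438014 to 67481237), was at 53.1, 49.6 and 51.2 CPM in the DMSO libraries, 69.9, 65.7 and 68.1 CPM with 5 µM and 97.0, 70.8 and 73.7 CPM with 10 µM. The 3 groups did not overlap, although the lowest library of 10 µM was close to the highest of 5 µM. Its log2 fold change was 0.40 at 5 µM (adjusted p = 0.0514 from edgeR, standard error 0.11) and 0.65 at 10 µM (adjusted p = 0.00188 from edgeR, standard error 0.11), and 0.49 at 10 µM without replicate 1. ATP6V1A, the catalytic subunit, and ATP6V1H, a regulatory subunit, were also higher at 10 µM, by 0.36 and 0.32 on the log2 scale, and the accessory protein ATP6AP1 was not (-0.02, or -0.09 without replicate 1). The call of ATP6V1A was lost under 6 alternatives, among them leaving out any of the 3 DMSO libraries, and that of ATP6V1H without DMSO replicate 2. The summed level of the 4 genes averaged 298 ± 2.59 (DMSO), 342 ± 9.47 (5 µM) and 371 ± 16.2 (10 µM) CPM, as mean ± SD of 3 libraries.

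**Figure D3:**
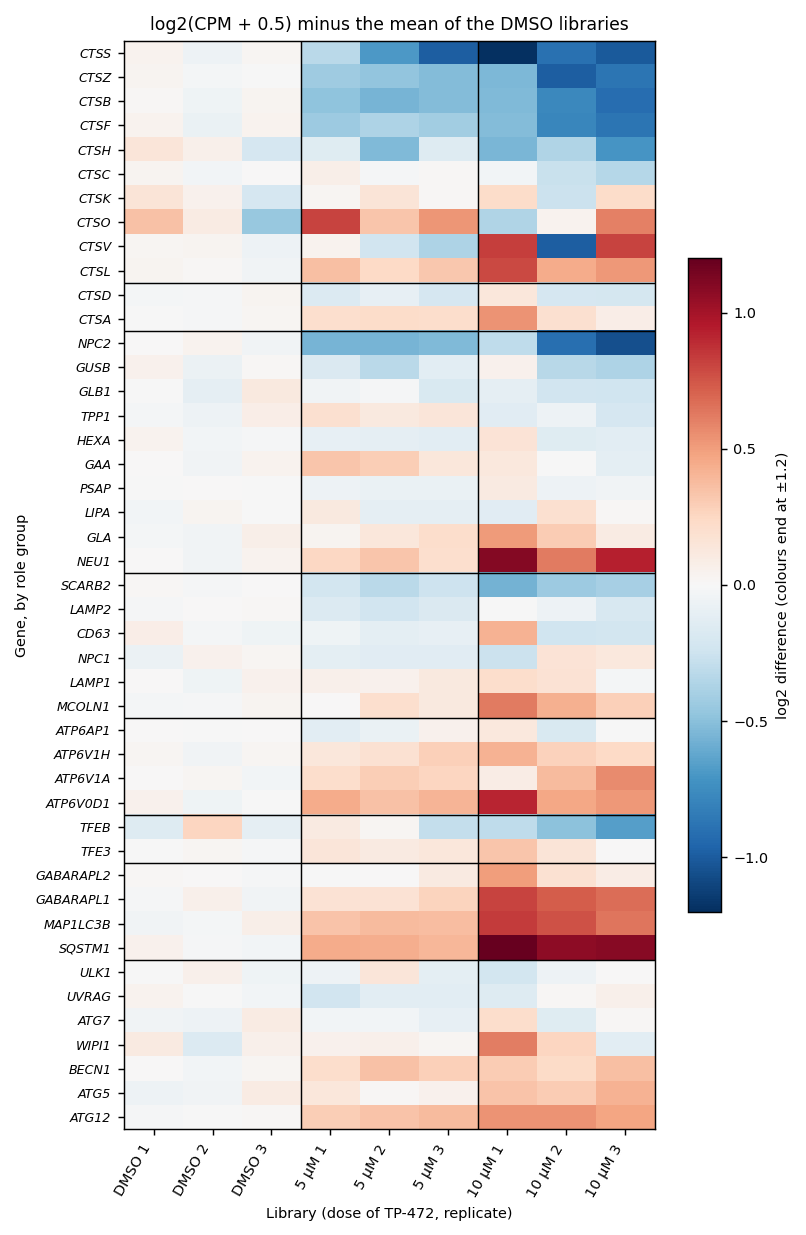
Difference of each library from the mean of the DMSO libraries, in log2(CPM + 0.5) (colour, ending at ±1.2), for the 45 genes (rows, by role) in the 9 libraries (columns). The 10 µM libraries were darkest, with SQSTM1, NEU1, MAP1LC3B and GABARAPL1 red and CTSS, CTSZ, CTSB and CTSF blue in all 3, and 10 µM replicate 1 was redder than the other 10 µM libraries in CD63, WIPI1 and GABARAPL2.

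The mRNA of TFEB and TFE3, the transcription factors themselves, was not called at either dose. TFEB (chromosome 6, 41683978 to 41736259) was scarce, at 3.54, 4.90 and 3.69 CPM in the DMSO libraries, 4.34, 4.09 and 3.20 CPM with 5 µM and 3.14, 2.69 and 2.34 CPM with 10 µM. The 10 µM libraries lay below the others, and the log2 fold change of -0.57 missed the limit (standard error 0.21, adjusted p = 0.0602 from edgeR), although without 10 µM replicate 1 it was -0.69 and passed (adjusted p = 0.0194 from edgeR). TFE3 (chromosome X, 49028726 to 49043486) was at 103, 105 and 102 CPM in the DMSO libraries, 115, 111 and 114 CPM with 5 µM and 131, 115 and 104 CPM with 10 µM. The 10 µM libraries overlapped those of DMSO and of 5 µM. The log2 fold change of TFE3 at 10 µM was 0.17 (adjusted p = 0.15 from edgeR), or 0.08 without 10 µM replicate 1. With the length and GC trend removed, TFE3 was called higher at 10 µM at 0.26 (adjusted p = 0.00428 from edgeR), and TFEB was not called at -0.46. TFE3 was also called higher at 10 µM without 10 µM replicate 3, and at 5 µM without 10 µM replicate 1 (0.13). Per exonic length in DMSO, TFE3 was at 24.2 CPM per kb, MITF at 4.45 CPM per kb and TFEB at 0.716 CPM per kb. MITF had a log2 fold change of -0.13 at 10 µM, or -0.000459 without replicate 1, and was called in neither fit. The activity of TFEB and TFE3 depends on where they are in the cell, which mRNA levels do not measure.

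The autophagy receptor and ATG8 genes included the largest rise of the 45. SQSTM1 encodes p62, which binds ubiquitin-tagged cargo and LC3 and is itself degraded with the cargo (chromosome 5, 179806398 to 179838078). Its level was 677, 648 and 639 CPM in the DMSO libraries, 894, 886 and 861 CPM with 5 µM and 1795, 1374 and 1401 CPM with 10 µM. The 3 groups did not overlap, and 10 µM replicate 1 was the highest library. The log2 fold change of SQSTM1 was 0.43 at 5 µM (adjusted p = 0.0225 from edgeR, standard error 0.10) and 1.22 at 10 µM (adjusted p = 1.51e-05 from edgeR, standard error 0.10), a 2.33-fold rise. From 5 to 10 µM it rose by a further 0.79 (adjusted p = 0.00131 from edgeR, standard error 0.10), and without replicate 1 the rise at 10 µM was 1.08. Its call at 5 µM was lost on leaving out any DMSO or 5 µM library. By GENCODE 29, 22.0% of the exonic length of SQSTM1 overlaps MGAT4B and MRNIP (listed as C5orf45) on the other strand, and the strand setting of the counting is unknown. MGAT4B went the other way, from 257 ± 5.56 CPM without TP-472 to 186 ± 26.1 CPM with 10 µM, and MRNIP was at 3.36 ± 0.423 and 3.74 ± 0.745 CPM (SD, n = 3 each).

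MAP1LC3B encodes LC3B, which is joined to lipid on the growing autophagosome (chromosome 16, 87383995 to 87404779). Its level was 89.5, 90.8 and 96.9 CPM in the DMSO libraries, 117, 120 and 119 CPM with 5 µM and 165, 157 and 145 CPM with 10 µM. The 3 groups did not overlap. On the log2 scale it was higher than DMSO by 0.36 at 5 µM and by 0.75 at 10 µM, and the step between the doses was 0.39, all 3 of them called. The calls at 5 µM and of the step were each lost under 4 of the 20 alternatives. Its near-identical copy MAP1LC3B2, with which it may share reads, averaged 1.62 ± 0.382 CPM without TP-472 and 4.66 ± 1.08 CPM with 10 µM (SD, n = 3 each).

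GABARAPL1, another ATG8 protein (chromosome 12, 10212458 to 10223130), was at 51.2, 54.1 and 50.2 CPM in the DMSO libraries, 58.3, 58.5 and 62.4 CPM with 5 µM and 91.3, 86.1 and 82.5 CPM with 10 µM. The 3 groups did not overlap, and most of the rise lay between 5 and 10 µM. Its log2 fold change was 0.20 at 5 µM, not called, 0.74 at 10 µM and 0.54 between the doses, the latter pair called. GABARAPL2 of the same family had 0.27 at 10 µM (adjusted p = 0.0737 from edgeR), and 0.13 without replicate 1 (adjusted p = 0.0566 from edgeR). The summed level of the 4 genes averaged 862 ± 16.9 (DMSO), 1124 ± 11.6 (5 µM) and 1841 ± 259 (10 µM) CPM, as mean ± SD of 3 libraries, of which SQSTM1 made up most.

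In autophagy initiation and conjugation, ATG12, ATG5 and BECN1 were higher at 10 µM, all by less than 1.5-fold. ATG12 is a ubiquitin-like protein that is joined to ATG5, and their conjugate helps attach LC3 to lipid. ATG12 went from 95.1 ± 0.775 to 120 ± 3.60 and 136 ± 3.57 CPM with rising dose (mean ± SD, n = 3 each), with log2 fold changes of 0.34 and 0.52. ATG5 had a log2 fold change of 0.07 at 5 µM, not called, and of 0.36 at 10 µM. BECN1, a subunit of the lipid kinase complex that starts autophagosome formation, was called at both doses at nearly the same size, 0.28 and 0.30, but its call at 5 µM was lost under 8 of the 20 alternatives, among them leaving out any DMSO or 5 µM library, and that at 10 µM without DMSO replicate 2. ULK1, the kinase that starts autophagy under mTORC1 control, the E1-like enzyme ATG7, and the phosphoinositide and BECN1 partners WIPI1 and UVRAG were not called, with log2 fold changes of -0.09, 0.03, 0.28 and -0.03 at 10 µM. Without 10 µM replicate 1 these values were -0.03, -0.07, 0.07 and 0.03, again not called.

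**Figure D4:**
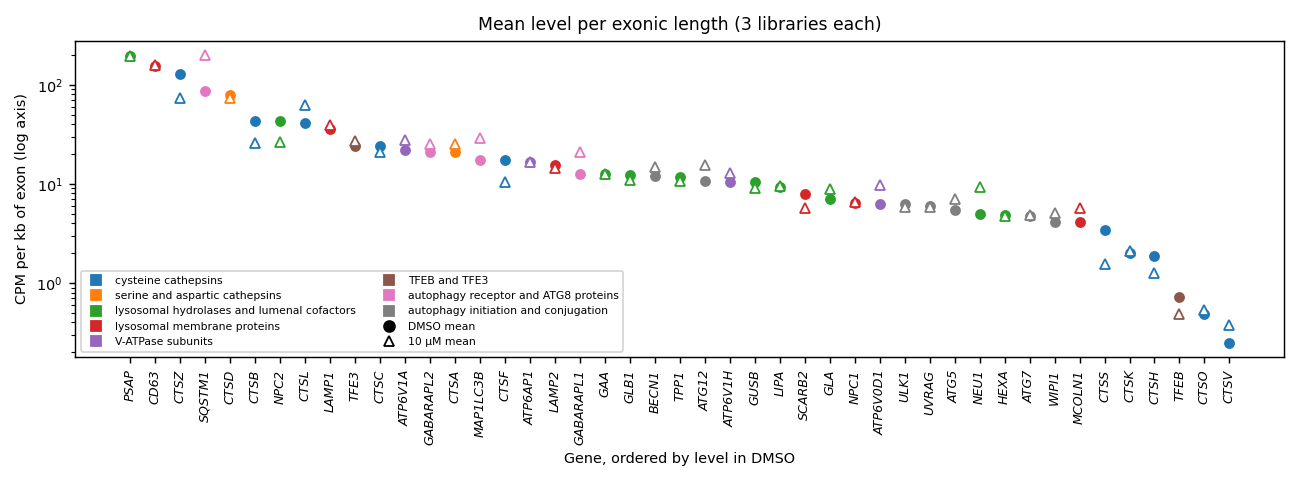
Mean level of the 45 genes in CPM per kb of exon (log axis), in DMSO (filled circles) and at 10 µM TP-472 (open triangles), ordered by the level in DMSO and coloured by role. PSAP, CD63, CTSZ, SQSTM1 and CTSD were the highest in DMSO, from 195 to 78.5 CPM per kb, and TFEB, CTSO and CTSV the lowest, from 0.716 to 0.251 CPM per kb.

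Per exonic length in DMSO the order from the top was PSAP (195 ± 0.956 CPM per kb), CD63 (155 ± 7.26), CTSZ (127 ± 2.38), SQSTM1 (85.5 ± 2.57), CTSD (78.5 ± 1.73), CTSB (43.4 ± 1.28), NPC2 (43.2 ± 1.26) and CTSL (41.4 ± 1.08), each as mean ± SD of 3 libraries. The libraries of CTSB, NPC2 and CTSL overlapped, while each of the genes above them differed from its neighbours by more than their spread. At 10 µM SQSTM1 reached 199 CPM per kb, beside PSAP at 196, CTSZ was at 73.7, and CTSL at 62.6 stood above CTSB at 26.1 CPM per kb.

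Between the doses, 4 of the 45 genes were higher at 10 µM than at 5 µM (NEU1, SQSTM1, MAP1LC3B and GABARAPL1) and TPP1 was lower, or 11.1% against 8.4% of all genes tested (2.87% higher and 5.53% lower). At a fold of at least 1.5 NEU1 and SQSTM1 were higher and 0 lower, where 1.42% of all genes were higher and 2.59% lower (4.01% in either direction). The steps from 5 to 10 µM of the 5 cathepsins that were lower at 10 µM lay between -0.21 for CTSB and -0.47 for CTSS, and none was called. Without 10 µM replicate 1 the steps of CTSB, CTSF and CTSZ were -0.33, -0.43 and -0.46, and all 3 were called lower, while those of CTSH and CTSS were not called. With the length and GC trend removed, those of CTSF and CTSZ were called. SQSTM1 and GABARAPL1 kept their calls under all 20 alternatives, NEU1 lost it under 2 and MAP1LC3B under 4.

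How many of the 45 genes were called rested on single libraries, mostly at 5 µM. Shares of all genes called were not counted for fits without a library, so the counts below cannot be set against the shares above. Without 10 µM replicate 1, 14 genes were higher and 12 lower at 5 µM, 14 higher and 14 lower at 10 µM, and 11 higher and 9 lower between the doses, and all 19 genes called at 10 µM with that library were still called without it. The 9 genes added at 10 µM by leaving it out were CD63, CTSA, CTSC, CTSD, GLB1, GUSB, HEXA, NPC1 and TFEB. The 9 genes lower at 10 than at 5 µM without it were CTSB, CTSC, CTSF, CTSZ, GAA, NPC2, CD63, SCARB2 and TPP1. Leaving out any DMSO or 5 µM library left between 1 and 4 genes called at 5 µM, with CTSB among them each time. The directions of the called genes did not reverse under any of the 20 alternatives.

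The other genes of the pathway came from 8 lists of 142 genes, of which 138 were tested, and 45 of the 138 were higher and 14 lower at 10 µM (32.6% and 10.1%, against 16.4% and 18% of all genes tested). Their median log2 fold change was 0.13 against 0.011 over all genes tested. The clearest list was the other vacuolar ATPase subunits, where 9 of 12 were higher and 0 lower at 10 µM, all 12 log2 fold changes were above 0, and the median was 0.48. ATP6V1D, ATP6V1E1 and ATP6V1G1, stalk subunits of the soluble sector, rose by 0.60, 0.68 and 0.50 on the log2 scale. Without 10 µM replicate 1 the values were 0.47, 0.52 and 0.40. With the length and GC trend removed they were 0.57, 0.55 and 0.23, and all were called in both fits. At 5 µM, where 4.4% of all genes were higher, 2 of the 12 were called higher, with a median of 0.31.

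Of 31 other lysosomal hydrolases 10 were higher and 4 lower at 10 µM (32.3% and 12.9%, against the same 16.4% and 18% of all genes). The ganglioside activator GM2A rose by 0.72 on the log2 scale and LGMN, a protease that processes cathepsins, by 0.79. Of 18 other membrane proteins 7 were higher and 3 lower (38.9% and 16.7%), with CD68 at 0.91, the cystine exporter CTNS at 0.80 and the lipid transporter ABCA2 at -0.98. CD68 is also used as a macrophage marker, and it averaged 55.8 ± 2.68 CPM without TP-472 and 105 ± 22.1 CPM with 10 µM (SD, n = 3 each). The cause of its rise was not tested. Of 7 genes for targeting enzymes to the lysosome only M6PR, a mannose 6-phosphate receptor, was called, at 0.20. IGF2R, the other such receptor, was not called at -0.33 and rested on 10 µM replicate 1 (87.7 CPM against 198 and 197 CPM in the other 10 µM libraries), with a value of -0.04 without it. NAGPA had 0.20 with that library and -0.10 without it, and was not called.

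Of 20 genes of the MiT family and of mTORC1 control at the lysosome, 7 were higher and 2 lower at 10 µM (35% and 10%, against 16.4% and 18% of all genes), and 0 were called at 5 µM, where 10.2% of all genes were. RRAGC, a GTPase that brings mTORC1 to the lysosome, rose by 0.61 on the log2 scale, its activator FLCN by 0.60, and the scaffold subunit LAMTOR4 by 0.89. LAMTOR4 was at 95.4 CPM in 10 µM replicate 1 against 56.6 and 57.4 CPM in the other 10 µM libraries, and its value without replicate 1 was 0.60.

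Of 32 other core autophagy genes 9 were higher and 1 lower at 10 µM (28.1% and 3.12%, against 16.4% and 18% of all genes), so that 31.2% were called in either direction against 34.3% of all genes. ATG4A, a protease that trims ATG8 proteins before and after lipid attachment, rose from 8.91 ± 0.369 to 16.3 ± 0.604 and 23.5 ± 3.88 CPM with rising dose (mean ± SD, n = 3 each), and its log2 fold change at 10 µM was 1.40. NRBF2, a partner of the BECN1 complex, rose by 0.61 on the log2 scale and DRAM1, a lysosomal membrane protein induced by p53, by 0.78. Of 11 other autophagy receptors 1 was higher and 4 were lower (9.09% and 36.4%). The mitochondrial receptors BNIP3 and BNIP3L, both known targets of the hypoxia response, had log2 fold changes of -1.03 and -0.92, and TOLLIP had 0.56. Among the other cathepsins and the cystatins, which inhibit cysteine cathepsins, 7 of 11 passed the filter and only CST7 was called, at a mean of 0.527 CPM at 10 µM and not without replicate 1. The main cystatins CST3 and CSTB had log2 fold changes of 0.35 and 0.39, or 0.11 and 0.09 without 10 µM replicate 1, and were called in neither fit.

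**Figure D5:**
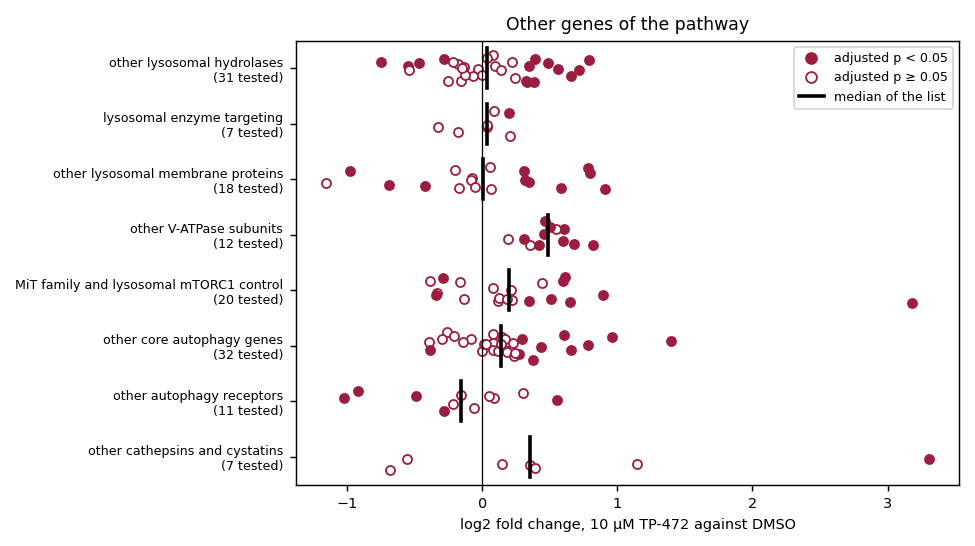
Log2 fold change at 10 µM TP-472 against DMSO (horizontal axis) of the other tested genes of the pathway in 8 lists (rows). Filled points passed an adjusted p under 0.05, and black bars are the medians of the lists. All 12 vacuolar ATPase subunits lay right of 0 with a median of 0.48, and the points past 3 are TFEC and CST7, genes of low level.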

How the data were processed

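RNA of A375 cells (3 libraries each of DMSO, 5 µM and 10 µM TP-472, 24 h) was sequenced by the authors. The authors deposited expected counts, 1 table for all libraries with a row per gene symbol and no scaling. The submitters' processing notes list Bowtie2 2.1.0, RSEM 1.2.15 and hg38. For the annotation and the strand setting of the counting, the sources used here give nothing. The library protocol names oligo-dT beads and a strand-specific kit, and the design text names depletion of ribosomal RNA. The values, 10.6% to 13.8% of them not whole in a library, were rounded to the nearest whole number.

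Testing used edgeR 4.0.16 (R 4.3.3): TMM factors, filterByExpr, a quasi-likelihood fit of 3 groups and Benjamini-Hochberg adjustment over 16417 genes. A standard error is the log2 fold change over the root of its F value. Totals of 42483091 to 51298130 limit the precision of genes under a few CPM. An exact permutation test of 3 against 3 libraries could not go below p = 0.1. The fit was tested on simulated data. The 45 genes and the lists were chosen with earlier results of these data known. Values in every library are given for genes called with a fold of at least 1.5 in any comparison and for TFEB and TFE3, full statistics for those with the smallest p of a role group, and the 3 genes with the smallest p at 10 µM from each pathway list, with MITF; 1 gene that this names is not reported here. Alternatives were other scaling factors, filters, rounding, DESeq2 1.42.0, limma-voom (limma 3.58.1), a replicate block, leaving out each library, and fits of 2 groups. A length and GC correction (15273 genes) and leaving out genes of ribosomal RNA were added after seeing the data. Positions and exonic lengths are from GENCODE 29 on GRCh38, and promoters from RefSeq.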

Additional observations from a re-analysis of the deposited data

How the results depend on the processing

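No direction reversed among the named genes' calls under the 20 alternatives, and the cause of the changes below was not tested. The share of all genes called was not counted for the alternative fits, so their counts describe these genes only. Leaving out 1 library at a time gave 0 to 14 genes higher and 1 to 12 lower at 5 µM with a median log2 fold change of -0.0082 to 0.041, 9 to 16 higher and 6 to 14 lower at 10 µM with a median of 0.014 to 0.095, and 2 to 11 higher and 0 to 9 lower between the doses with a median of -0.0077 to 0.102. A fit of only the groups compared gave 14 higher and 12 lower at 5 µM, and 2 higher and 0 lower between the doses. DESeq2 gave 7 higher at 5 µM, and 8 higher and 2 lower between the doses. With the length and GC trend removed, which was added after seeing the data, 8 were higher at 5 µM with a median of -0.0025, the median at 10 µM was 0.118, and 8 were higher and 3 lower between the doses. A fold of at least 1.5 as well left 0 higher and 1 lower at 5 µM, 6 higher at 10 µM, and 2 higher and 0 lower between the doses. Upper-quartile factors left 0 lower between the doses.

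The replicate numbers pair the samples in name only, judged by the deviation of each library from the mean of its group. Between groups, these deviations had correlations of -0.0493 to 0.0322 for same-numbered libraries. For libraries of different numbers they were -0.0327 to 0.0451. With the replicate block, 3 genes were lower at 5 µM in place of 5, and 0 were lower between the doses in place of 1.

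The standard errors of CTSK, CTSO, CTSV and TFEB, genes of low level, were the largest of the 45. How much of this came from depth and how much from spread between libraries was not tested. CTSV was at 2.48, 0.346 and 2.45 CPM in the 10 µM libraries.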
